A study of Mus musculus with 8 samples.

Results

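The genes described here are 40 genes of calcium handling, chosen by name from 26894 genes with a symbol in the deposited expression table: pores and auxiliary subunits of voltage-gated calcium channels, calcium pumps and exchangers, release channels of the endoplasmic reticulum (ER), parts of store-operated entry and of the mitochondrial uniporter, and TRP channels. They were measured in pancreatic islets of 4 βUCP2Tg samples and 4 wild-type (WT) samples, all from male mice. βUCP2Tg mice carry a *Ucp2* cDNA behind a rat *Ins2* promoter, which is active in β-cells. The transgene was microinjected into fertilized eggs, its place in the genome was not stated, and the line was backcrossed to C57BL6/J. WT mice were littermates without the transgene, the labels give no age, and the methods describe islets of young adult mice. Islets of both groups were kept in medium with 200 mg/dL glucose for 8 h before RNA was taken, so a comparison at another glucose level was not part of this experiment. The question was whether expression of these genes differed between islets with and without the transgene.

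In β-cells, closure of potassium channels by ATP depolarises the membrane and opens voltage-gated calcium channels, and the calcium that enters starts the release of insulin granules. The ER is the main calcium store: SERCA pumps fill it, and IP3 receptors empty it when a receptor at the cell surface makes IP3. STIM proteins sense an emptied store and open ORAI channels. TRP channels are cation channels of the plasma membrane that respond to heat, ligands or calcium itself, and mitochondria take up calcium through the uniporter.

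RNA of each sample was labelled with Cy3 and hybridised to its own one-colour Agilent array, on which a 60-base probe reports the transcript it matches. Values below are log2 of the spot intensity minus the 75th percentile of the same array, so a value of 0 lies at that percentile. They can be compared between arrays for one probe but not between probes. The 40 genes had 115 probes, and 0 of these shared a run of 30 bases with any other probe of the deposited table. Each gene was read by its brightest probe, the probe with the highest mean over the 8 normalized columns of the deposited table, and its other probes stand beside it. By this probe 36 genes were well above background on all 8 arrays and were tested, and *Cacnb4*, *Ryr2*, *Trpv1* and *Trpv3* were not well above background on any array.

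The first 30 bases of probes of 3 genes are shown here, 5′ to 3′ as the array design lists them and with no part in capitals. The 4 *Trpc1* probes are shown because all of them were lower in βUCP2Tg islets without overlap of the groups. The *Trpm3* pair is shown because the dimmer probe was well above background in one genotype alone, and the *Itpr2* pair as one example of probes that differed in sign, as they did for 12 of the 24 genes with more than 1 tested probe.
Trpc1 A_55_P2022793: gggatttgcttggctttcggacttctaaat
Trpc1 A_52_P35561: ccccttttaaatgtcggtattttttattag
Trpc1 A_55_P2719985: ggcaatcaatgagataaagcagttatcatt
Trpc1 A_51_P196019: gggaatgttcctccttgttctgttttcctt
Trpm3 A_66_P134073: ctggccaagaatatcttctacatgccttat
Trpm3 A_55_P2732458: agaggtgaaactccgcagacaactggaaaa
Itpr2 A_51_P500051: aaacaaccaagtgccaagatgctgagccat
Itpr2 A_55_P2720874: ctattaaaaggactctgaaagattcttgtg

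*Ucp2* checked the labels. Its brightest probe read between 0.92 and 1.46 on the WT arrays and between 6.99 and 7.71 on the βUCP2Tg arrays, a log2 fold change of 6.24 (SE 0.18, limma adjusted p = 9.32e-06). Its second probe differed by 0.44 (SE 0.12, limma adjusted p = 0.0987). All 8 arrays shared one slide, each genotype in a row of its own, so that position and genotype cannot be told apart. WT sample 1 lay nearer to the βUCP2Tg samples than the other WT samples did for many genes, and βUCP2Tg sample 4 nearer to the WT samples. Whether a sample held islets of a single mouse was not settled, so p-values measure the spread between samples. In whole islets, fewer cells of a type and less RNA per cell cannot be told apart.

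The summed markers of some other cells separated by genotype, and those of most did not. The summed linear level of the 9 tested macrophage markers ran from 11.1 to 13.1 on the βUCP2Tg arrays and from 15.3 to 17.0 on the WT arrays, without overlap, and 3 of the 9 reached an unadjusted p under 0.05, *Cd68* and *Cd14* lower and *C1qa* higher in βUCP2Tg islets, with *Cd14* called (limma adjusted p = 0.048). Their defining marker *Adgre1* differed by -0.37 (SE 0.35). The summed level of 19 acinar markers was 20.2 to 337.0 against 33.3 to 538.7, with a median log2 fold change of -1.73 and 1 of the 19 at an unadjusted p under 0.05. Of 22 hypoxia response genes, 17 were lower in βUCP2Tg islets at an unadjusted p under 0.05, with a median log2 fold change of -1.22, and their sum was 192.6 to 414.5 in βUCP2Tg and 312.5 to 597.0 in WT islets. The 9 β-cell markers summed to 1136 to 1514 against 1460 to 1499, and *Ins1* differed by -0.16 (SE 0.12). The sums of 4 α-cell, 3 δ-cell, 5 ductal, 10 endothelial and 9 mural and stellate markers overlapped between the groups. At an unadjusted p under 0.05 these lists held 1 higher α-cell, 1 higher δ-cell, 1 higher and 2 lower ductal, 4 higher and 1 lower endothelial, and 2 higher mural and stellate markers. The sum of the 2 PP-cell hormones was higher in βUCP2Tg islets without overlap (443.7 to 568.0 against 294.0 to 440.0), with 1 of them, *Pyy*, at an unadjusted p under 0.05. The sum of 8 Schwann and neuron markers was also higher without overlap (8.19 to 8.62 against 7.27 to 8.01), but 6 of the 8 had a log2 fold change below 0 (median -0.25), with 2 higher and 1 lower at an unadjusted p under 0.05. The part of any of these in the results below was not tested.

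**Figure D1:**
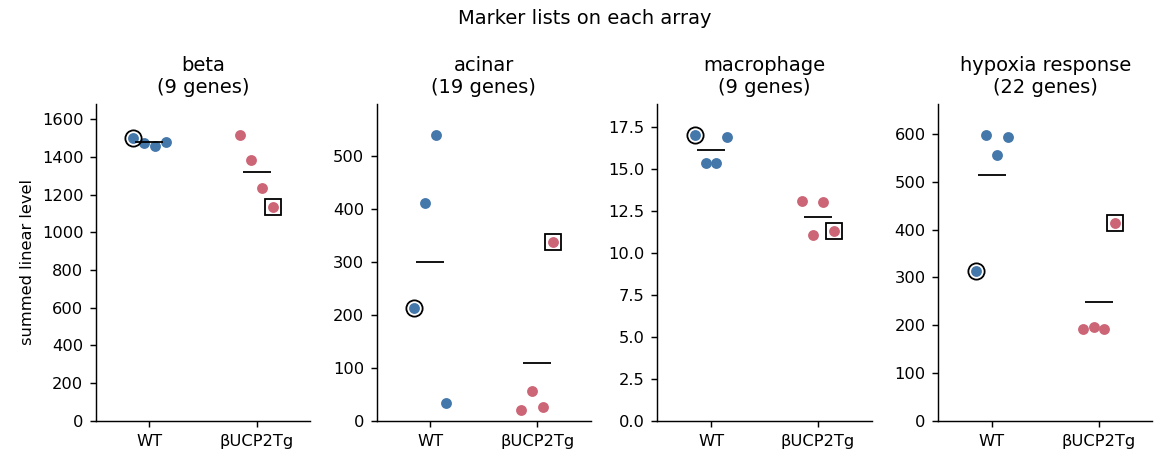
Summed linear level of the tested genes of 4 marker lists (y axis, in units of each array's 75th percentile, from 0) on the 4 WT and 4 βUCP2Tg arrays; points are arrays, the black dash is the group mean, the circle is WT sample 1 and the square βUCP2Tg sample 4. Macrophage sums were 11.1 to 13.1 in βUCP2Tg and 15.3 to 17.0 in WT islets, and the hypoxia sum of WT sample 1 (312.5) lay below that of βUCP2Tg sample 4 (414.5).

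None of the 36 genes tested was called at a limma adjusted p under 0.05 with a change of more than 1.5-fold, while 0.482% of all 17857 genes were called by their brightest probe (0.41% of 35363 probes). Under the methods' t-test 0 genes of the 36 were called as well, and limma with an intensity trend called 1. At an unadjusted p under 0.05, 13 of the 36 genes (36.1%) differed, against 24.5% of all genes (25.2% of all probes). Of these 13, 8 were higher in βUCP2Tg islets, where 12.9% of all genes were, and 5 were lower, where 11.6% of all genes were. With the mean of a gene's probes in place of the brightest probe the split turned, to 3 higher and 7 lower (12.1% and 14.3% of all genes). Without βUCP2Tg sample 2 or 3 only 5 or 6 of the 36 reached that p (13.9% and 16.7%, against 15.8% and 16.9% of all genes), so the members' excess over all genes was not seen there. Without WT sample 2, WT sample 4 or βUCP2Tg sample 4 it was 8 each (22.2%, against 18.2%, 23.4% and 27.2% of all genes). Without WT sample 3 or βUCP2Tg sample 1 the excess stayed (27.8% and 30.6%, against 17.1% and 17.4% of all genes). Without WT sample 1 the shares were 38.9% and 36.4%. The groups did not overlap for 5 of the 36 (13.9%), close to the 13.2% of all genes. Their median log2 fold change was 0.08, and that of all genes was 0.03. The 95% confidence interval of the difference lay within 1.5-fold in either direction for 19 of the 36. At 4 arrays against 4 the smallest p of a two-sided exact permutation test is 0.0286, which the 5 genes without overlap reached.

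**Figure D2:**
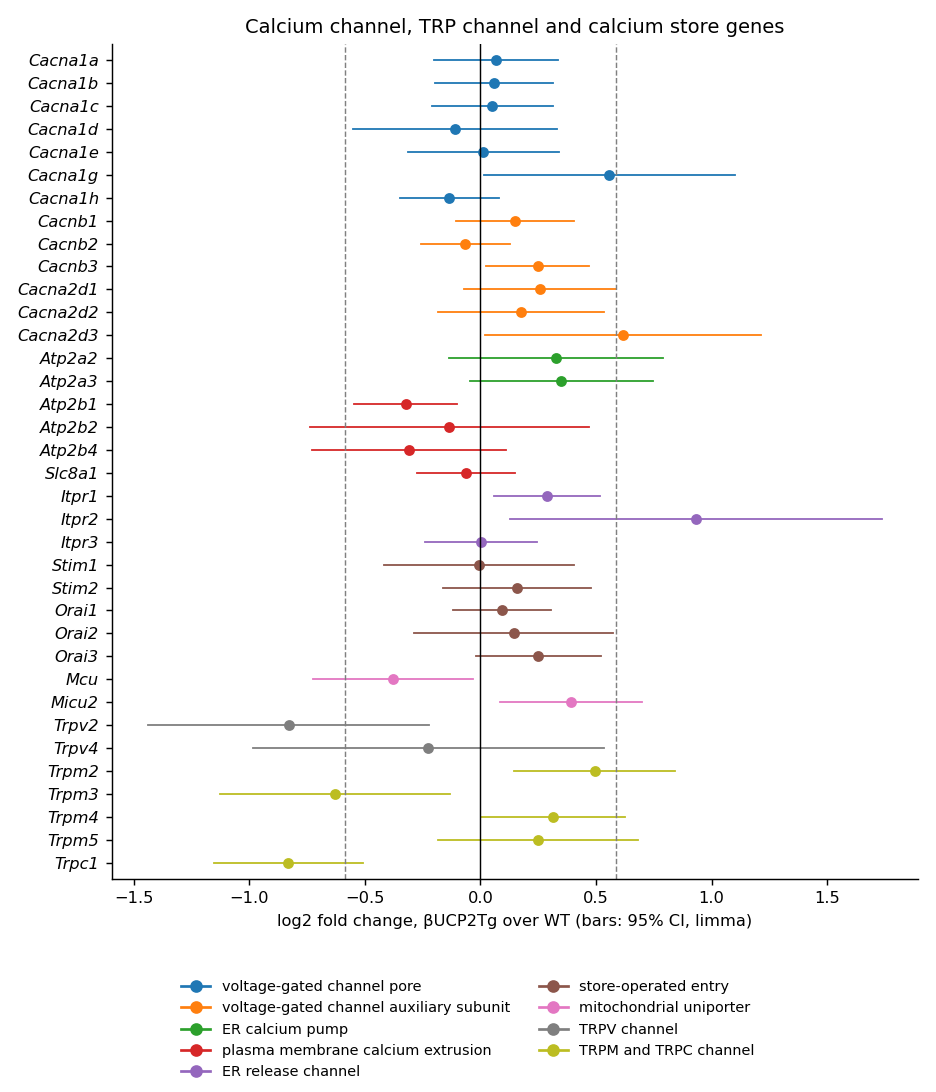
Log2 fold change of βUCP2Tg over WT (x axis) for the 36 tested genes (y axis, coloured by role), with bars for the 95% confidence interval from limma and dashed lines at 1.5-fold. *Trpc1* (-0.83) and *Trpv2* (-0.83) lie farthest to the left and *Itpr2* (0.93) farthest to the right, and the intervals of *Cacna1a*, *Cacna1b*, *Cacna1c* and *Itpr3* stay inside the dashed lines.

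The number of calls depended on WT sample 1. Without it 5 of the 36 genes were called, *Trpc1*, *Trpm3* and *Trpv2* lower and *Itpr2* and *Trpm2* higher in βUCP2Tg islets, which is 13.9% of them, where 11.4% of all genes were called without it. Leaving out an array that lies between the groups widens the gap by construction, and no label of this sample gave a reason to leave it out. All values below include it unless stated.

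Among the pore-forming subunits, the α1 subunits through which calcium crosses the membrane, 1 of 7 reached an unadjusted p under 0.05. *Cacna1c*, the L-type pore of β-cells, read 2.65, 2.67, 2.76 and 2.58 on the βUCP2Tg arrays and 2.83, 2.67, 2.59 and 2.36 on the WT arrays. The ranges overlapped, and the log2 fold change was 0.05 (SE 0.11, 95% CI -0.21 to 0.31). *Cacna1d*, the other L-type pore of the islet, differed by -0.11 (95% CI -0.55 to 0.33). *Cacna1a*, the P/Q-type pore, read 1.73, 1.79, 1.78 and 1.51 in βUCP2Tg and 1.89, 1.55, 1.61 and 1.501 in WT islets. Its difference of 0.07 (95% CI -0.20 to 0.33) was smaller than the spread within either group. *Cacna1b*, the N-type pore, read -1.32, -1.46, -1.47 and -1.66 against -1.40, -1.49, -1.53 and -1.73 and differed by 0.06 (95% CI -0.20 to 0.31). *Cacna1e*, the R-type pore, differed by 0.01 (95% CI -0.31 to 0.34), and *Cacna1h*, a T-type pore, by -0.13 (95% CI -0.35 to 0.08). By their brightest probes the P/Q-, N-, L- and R-type pores thus had intervals within 1.5-fold in either direction. Intervals of dimmer probes of *Cacna1a*, *Cacna1b* and *Cacna1c* reached past it, down to -0.64, -0.83 and -0.82. *Cacna1g*, the second T-type pore, was the member of the group at an unadjusted p under 0.05: it read -5.06, -5.23, -4.45 and -4.45 in βUCP2Tg and -5.54, -5.58, -4.85 and -5.46 in WT islets, and differed by 0.56 (SE 0.24, limma adjusted p = 0.19). WT sample 3 lay among the βUCP2Tg values, and the second *Cacna1g* probe, well above background on 5 of the 8 arrays, differed by -0.24 (SE 0.25). The mean of its tested probes differed by 0.16 (SE 0.21).

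Dimmer probes of the pores gave another picture for several genes. 2 further *Cacna1c* probes were lower in βUCP2Tg islets, by -0.40 (SE 0.15) and by -0.52 (SE 0.13, groups without overlap, limma adjusted p = 0.089). The dimmest tested *Cacna1a* probe was lower by -0.37 (SE 0.12, without overlap, limma adjusted p = 0.117) and a dim *Cacna1b* probe by -0.49 (SE 0.15, limma adjusted p = 0.114). With the mean of each gene's probes, *Cacna1a* (-0.10), *Cacna1b* (-0.17) and *Cacna1c* (-0.23) turned below 0. Over the array, too, probes other than the brightest were more often lower (20.4%) than higher (7.85%) in βUCP2Tg islets at an unadjusted p under 0.05. The deposited table does not say which transcript forms these probes separate.

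The auxiliary subunits bring the pore to the membrane and set its gating. Of 6 tested, 5 were above WT and 2 reached an unadjusted p under 0.05. *Cacnb3*, a β subunit, read 1.10, 1.17, 1.16 and 1.18 on the βUCP2Tg arrays and 0.75, 0.83, 0.97 and 1.08 on the WT arrays. Every βUCP2Tg value exceeded every WT value, by a small margin at the nearest pair. The log2 fold change was 0.25 (SE 0.10, limma adjusted p = 0.166), a 1.19-fold difference. *Cacna2d3*, an α2δ subunit, was -3.98 to -3.06 in βUCP2Tg and -4.48 to -3.48 in WT islets, a difference of 0.62 (SE 0.26, limma adjusted p = 0.187) with overlapping groups. The other α2δ subunits *Cacna2d1* (0.26, 95% CI -0.07 to 0.59) and *Cacna2d2* (0.18, 95% CI -0.18 to 0.54) and the β subunit *Cacnb1* (0.15, 95% CI -0.11 to 0.41) did not reach that p. *Cacnb2*, a β subunit, differed by -0.07 (95% CI -0.26 to 0.13) by its brightest probe, while 2 of its dimmer probes were lower in βUCP2Tg islets by -0.59 (SE 0.23) and by -0.95 (SE 0.31, limma adjusted p = 0.125). Neither probe of *Cacnb4* was well above background on any array.

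The SERCA pumps fill the ER. *Atp2a2*, SERCA2, read 4.22, 4.14, 4.29 and 3.91 on the βUCP2Tg arrays and 4.38, 3.58, 3.45 and 3.85 on the WT arrays. WT sample 1 held the highest value of all 8, and βUCP2Tg sample 4 the lowest of its group. The difference was 0.33 (SE 0.20, 95% CI -0.13 to 0.79, limma adjusted p = 0.339), and its 2 other probes differed by 0.12 (SE 0.11) and 0.07 (SE 0.11), with 0.17 (SE 0.13) for the mean of the 3. *Atp2a3*, SERCA3, ran from 3.81 to 4.06 against 3.33 to 4.06 and differed by 0.35 (SE 0.17, 95% CI -0.05 to 0.75). Neither pump reached an unadjusted p under 0.05 with all arrays. Without WT sample 1 the differences were 0.52 and 0.49, with limma adjusted p = 0.0446 and 0.0485, both under 1.5-fold.

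Calcium leaves the cell through the plasma membrane pumps PMCA and the sodium-calcium exchanger, and all 4 tested genes of this group had a log2 fold change below 0 by their brightest probe. *Atp2b1*, PMCA1, read 1.32, 1.29, 1.47 and 1.42 on the βUCP2Tg arrays and 1.60, 1.64, 1.66 and 1.88 on the WT arrays. The groups did not overlap, and the difference was -0.32 (SE 0.10, limma adjusted p = 0.111). Its second probe gave -0.28 (SE 0.08, limma adjusted p = 0.109), again without overlap. Both probes of *Atp2b1* thus placed βUCP2Tg islets below all 4 WT samples. *Atp2b2* differed by -0.13 (95% CI -0.74 to 0.47) by its brightest probe and by -0.39 (SE 0.14, limma adjusted p = 0.137) by its second. *Atp2b4* differed by -0.31 (95% CI -0.73 to 0.11) by its brightest probe and by 0.21 (SE 0.36) by its second. *Slc8a1*, the exchanger NCX1, differed by -0.06 (95% CI -0.28 to 0.15) by its brightest probe. A second *Slc8a1* probe, well above background on 2 βUCP2Tg and 4 WT arrays, was lower by -0.77 (SE 0.19, groups without overlap, limma adjusted p = 0.088). The WT arrays alone carried this probe past the filter on dim probes, which favours a difference. Its p and its lack of overlap are thus given as a description.

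The IP3 receptors release calcium from the ER. *Itpr1* read 1.96, 2.03, 2.05 and 1.96 on the βUCP2Tg arrays and 1.90, 1.52, 1.72 and 1.72 on the WT arrays. The βUCP2Tg values lay close together and above all WT values, with WT sample 1 just below them. The log2 fold change was 0.29 (SE 0.10, limma adjusted p = 0.137), a 1.22-fold difference, and the 3 other *Itpr1* probes differed by 0.21 (SE 0.20), -0.04 (SE 0.10) and -0.10 (SE 0.25). *Itpr2* read 1.59, 1.59, 1.29 and 0.87 in βUCP2Tg and 1.49, 0.10, -0.10 and 0.12 in WT islets. 3 WT samples lay together well below the βUCP2Tg samples, and WT sample 1 lay among them. The difference was 0.93 (SE 0.35, limma adjusted p = 0.155) with all arrays and 1.30 (SE 0.19, limma adjusted p = 0.0145) without WT sample 1. Without WT sample 3 it was 0.76 (SE 0.37, limma adjusted p = 0.328), the lowest with a single array left out. The *Itpr2* probes did not tell one story. A dim probe, well above background on 4 βUCP2Tg and 2 WT arrays, differed by 0.91 (SE 0.41). The βUCP2Tg arrays alone carried it past the filter on dim probes, which favours a difference. Another probe differed by -0.03 (SE 0.17). A_55_P2720874 was lower in βUCP2Tg islets by -0.34 (SE 0.12, limma adjusted p = 0.137), with -3.18, -3.58, -3.20 and -3.47 against -2.99, -3.09, -3.10 and -2.87 and no overlap. With the mean of its probes as a single feature the difference was 0.37 (SE 0.21, limma adjusted p = 0.295) for *Itpr2* and 0.09 (SE 0.13, limma adjusted p = 0.683) for *Itpr1*. *Itpr3*, the third receptor, ran from 4.04 to 4.36 against 4.14 to 4.36, and its difference of 0.00 had a 95% CI of -0.24 to 0.25. *Ryr2*, the ryanodine receptor, had 3 probes, none of which was well above background on any array.

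**Figure D3:**
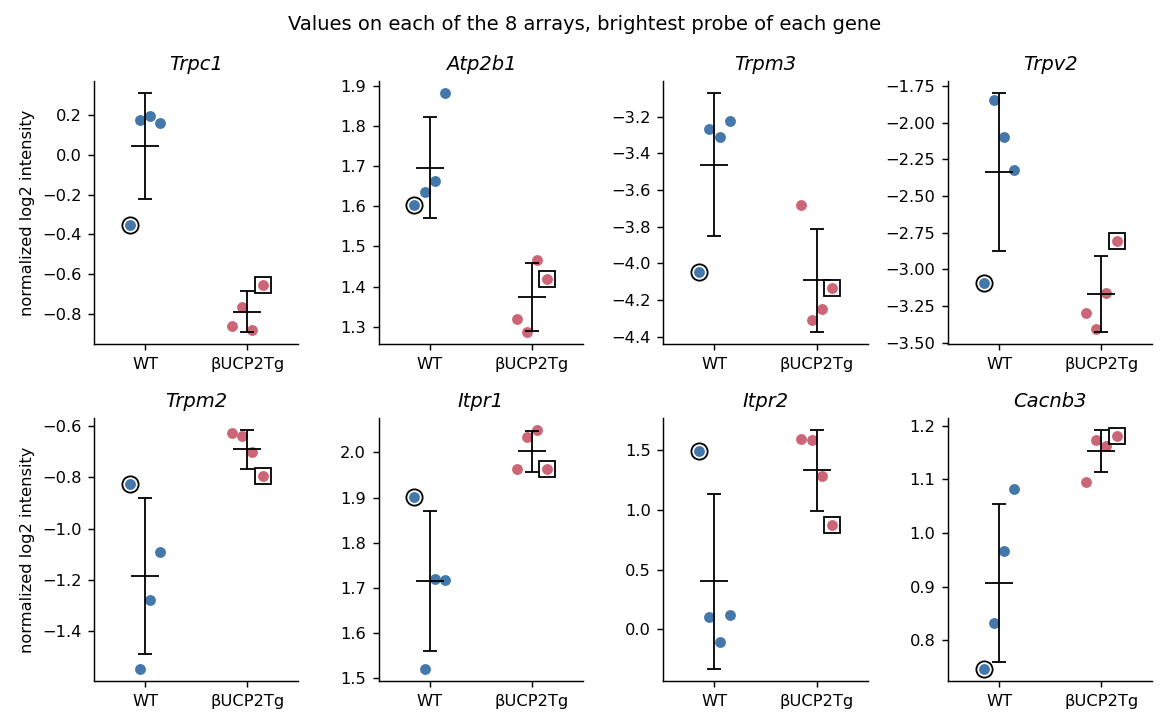
Normalized log2 intensity of the brightest probe (y axis) of 8 genes on the 4 WT and 4 βUCP2Tg arrays; points are arrays, bars give the mean and SD, the circle is WT sample 1 and the square βUCP2Tg sample 4. The groups do not overlap for *Trpc1*, *Atp2b1*, *Trpm2*, *Itpr1* and *Cacnb3*, and WT sample 1 lies among the βUCP2Tg values for *Trpm3*, *Trpv2* and *Itpr2*.

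For store-operated entry, 0 of 5 genes reached an unadjusted p under 0.05 in limma. The ER sensor *Stim1* ran from 3.27 to 3.57 in βUCP2Tg and from 3.08 to 3.85 in WT islets, a difference of -0.01 (95% CI -0.42 to 0.40). *Stim2*, the second sensor, differed by 0.16 (95% CI -0.16 to 0.48). The channel subunits *Orai1*, *Orai2* and *Orai3* differed by 0.09 (95% CI -0.12 to 0.30), 0.14 (95% CI -0.29 to 0.57) and 0.25 (95% CI -0.02 to 0.52). The intervals of all 5 excluded a difference of 1.5-fold or more in either direction.

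The mitochondrial pair differed in opposite directions at an unadjusted p under 0.05 by limma, and neither gene was called. *Mcu*, the uniporter pore, read 1.09, 0.56, 0.83 and 0.64 on the βUCP2Tg arrays and 1.16, 1.21, 0.88 and 1.38 on the WT arrays, a difference of -0.38 (SE 0.15, limma adjusted p = 0.169). The lowest WT value lay below the highest βUCP2Tg value. By the methods' t-test the unadjusted p of *Mcu* was 0.051. *Micu2*, a regulator that gates the pore, ran from 1.88 to 2.16 against 1.40 to 1.91 and differed by 0.39 (SE 0.13, limma adjusted p = 0.134). Of the dimmer *Mcu* probes, one was lower by -1.13 (SE 0.34, limma adjusted p = 0.11) and the others differed by 0.40 (SE 0.22) and -0.21 (SE 0.25). With the mean of its probes taken as a single feature, *Mcu* differed by -0.33 (SE 0.10, limma adjusted p = 0.0996).

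Of the TRPV channels, 2 of 4 were measurable. *Trpv1*, the capsaicin receptor, read -8.07, -7.96, -8.13 and -7.80 on the βUCP2Tg arrays and -8.17, -7.96, -7.94 and -7.56 on the WT arrays, not well above background on any of them. *Trpv3*, a heat-sensitive channel, read -7.88, -7.80, -6.52 and -7.58 against -6.46, -6.47, -7.07 and -7.46 and was likewise not well above background. No difference can be read for either. *Trpv2* read -3.30, -3.41, -3.16 and -2.81 in βUCP2Tg and -3.09, -1.84, -2.10 and -2.32 in WT islets. WT sample 1 lay among the βUCP2Tg samples, and the other 3 WT samples lay above all of them. The difference was -0.83 (SE 0.27, limma adjusted p = 0.119), or 1.78-fold lower, and it was -1.08 (SE 0.18, limma adjusted p = 0.0163) without WT sample 1. Without WT sample 2 it was -0.66 (SE 0.26, limma adjusted p = 0.247). Its second tested probe gave -0.34 (SE 0.23). *Trpv2* is also expressed by macrophages, whose summed marker level was lower in βUCP2Tg islets without overlap, and that part was not tested. *Trpv4*, an osmosensitive channel, read -3.23, -2.49, -3.20 and -2.67 against -3.49, -1.97, -2.34 and -2.88. The values of both groups mixed, and the difference of -0.23 had a wide interval (SE 0.33, 95% CI -0.98 to 0.53), while the second *Trpv4* probe gave -0.04 (SE 0.17) and the mean of both -0.13 (SE 0.22).

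The TRPM and TRPC channels held the largest share of genes at an unadjusted p under 0.05 among the groups with more than 2 tested genes, 4 of 5, in both directions. Of all genes 24.5% reached that p. *Trpm4* reached it narrowly, at an unadjusted limma p of 0.0497. *Trpc1*, a cation channel linked to receptor- and store-operated calcium entry, came closest to the threshold of all members. It read -0.86, -0.76, -0.88 and -0.65 on the βUCP2Tg arrays and -0.35, 0.18, 0.19 and 0.16 on the WT arrays. WT sample 1 was the lowest WT value and still lay above every βUCP2Tg sample. The difference was -0.83 (SE 0.14, limma adjusted p = 0.0517), or 1.78-fold lower in βUCP2Tg islets, with a 95% CI of -1.15 to -0.51.

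The 3 other *Trpc1* probes, whose opening bases are given above, were also lower in βUCP2Tg islets without overlap. A_52_P35561 read -1.37, -1.57, -1.49 and -0.86 against -0.60, 0.17, 0.12 and -0.55, a difference of -1.11 (SE 0.23, limma adjusted p = 0.0728). A_55_P2719985 differed by -1.02 (SE 0.22, limma adjusted p = 0.0782) and A_51_P196019 by -0.67 (SE 0.15, limma adjusted p = 0.081). *Trpc1* was the only member with 4 tested probes that all lay on one side without overlap of the groups. These probes read the same RNA extracts, so they are not further replicates. With the mean of its probes taken as a single feature, *Trpc1* differed by -0.91 (limma adjusted p = 0.0485), and without WT sample 1 its brightest probe gave -0.96 (SE 0.09, limma adjusted p = 0.00966). The adjusted p was 0.0863 by the methods' t-test, and over all alternatives run, fitted by limma or that test, it ranged from 0.0015 to 0.192, the highest value without βUCP2Tg sample 2, with the log2 fold change below 0 in each.

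*Trpm3*, a channel opened by heat and by pregnenolone sulfate, read -3.68, -4.31, -4.25 and -4.14 in βUCP2Tg and -4.05, -3.27, -3.31 and -3.22 in WT islets by A_66_P134073. WT sample 1 fell among the βUCP2Tg samples. The difference was -0.63 (SE 0.22, limma adjusted p = 0.134), and without WT sample 1 it was -0.83 (SE 0.16, limma adjusted p = 0.022). The second probe, A_55_P2732458, was well above background on 0 of 4 βUCP2Tg arrays and on 4 of 4 WT arrays. It read -6.76, -5.90, -6.48 and -6.19 against -5.22, -5.64, -5.14 and -5.33, without overlap and with WT sample 1 among the other WT samples. It was at least 1.37-fold higher in WT islets (limma adjusted p = 0.0661), taking for each βUCP2Tg array the lowest signal of a probe well above background as the bound where that exceeded the reading. This probe passed the filter on dim probes through the WT arrays alone, which favours a difference, so its p and its lack of overlap are given as a description. 2 more *Trpm3* probes, not tested, were well above background on 0 βUCP2Tg arrays and on 2 and 1 WT arrays.

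*Trpm2*, a channel gated by ADP-ribose and responsive to oxidants, stood on the other side. It read -0.63, -0.64, -0.70 and -0.79 on the βUCP2Tg arrays and -0.83, -1.55, -1.28 and -1.09 on the WT arrays. No WT value reached the βUCP2Tg range, although WT sample 1 came close to it. The difference was 0.50 (SE 0.15, limma adjusted p = 0.114), a 1.41-fold difference, and 0.62 (SE 0.12, limma adjusted p = 0.0245) without WT sample 1. Without WT sample 2 it was 0.37 (SE 0.13, limma adjusted p = 0.216), and the mean of its probes gave 0.36 (SE 0.16, limma adjusted p = 0.195). Its dimmer probes gave 0.71 (SE 0.23, limma adjusted p = 0.12), 0.12 (SE 0.24) and 0.10 (SE 0.20). *Trpm4*, a calcium-activated channel that passes sodium, ran from 0.37 to 0.62 against -0.17 to 0.40 and differed by 0.31 (SE 0.14, limma adjusted p = 0.198), while its second probe differed by 0.00 (SE 0.18). *Trpm5*, the related calcium-activated channel, differed by 0.25 (95% CI -0.18 to 0.68).

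**Figure D4:**
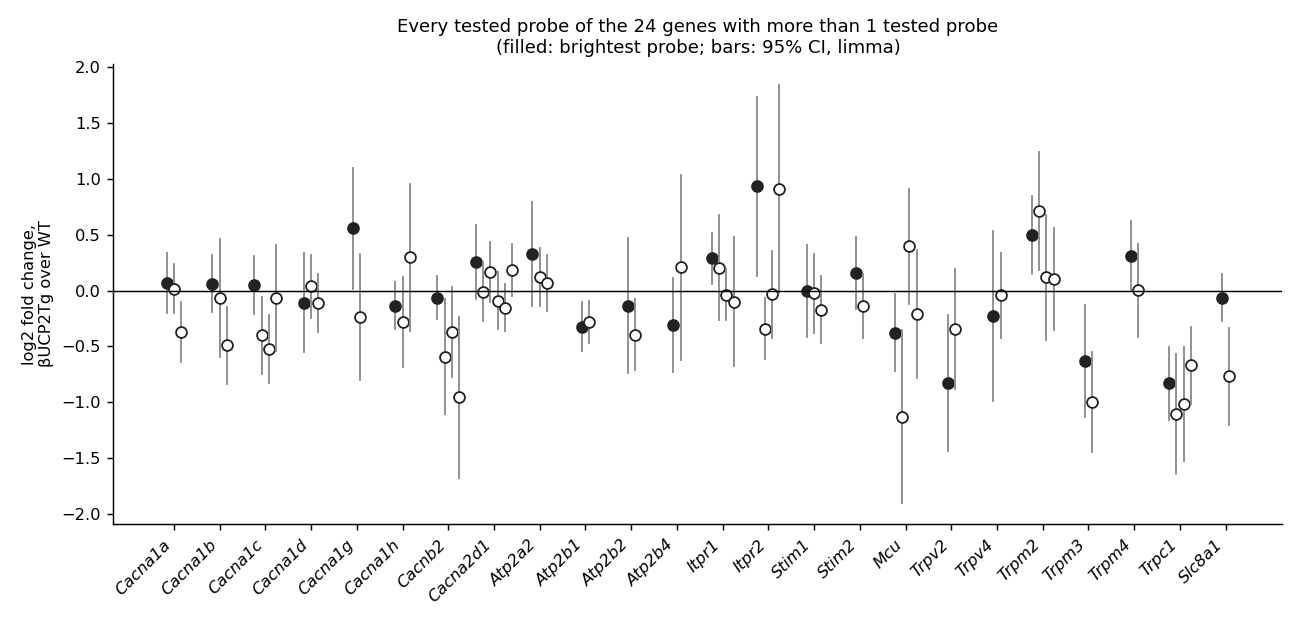
Log2 fold change of βUCP2Tg over WT (y axis) for every tested probe of the 24 genes with more than 1 tested probe (x axis); filled points are brightest probes, open points the other probes in order of brightness, and bars the 95% confidence interval from limma. The 4 *Trpc1* probes lie between -1.11 and -0.67, whereas probes of 12 of the 24 genes, *Itpr2* and *Mcu* among them, fall on both sides of 0.

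A wider list of 103 calcium genes, holding further channel subunits, buffers, sensors and calcium-dependent enzymes, gave a comparison. Of these, 100 had a probe and 85 were tested, with 1 called, where 0.482% of all genes were. This was *Cacng2*, a γ subunit that also regulates AMPA receptors, at -4.25 to -3.85 on the βUCP2Tg arrays and -5.13 to -5.04 on the WT arrays, with a fitted difference of 0.99 on the log2 scale (SE 0.11, limma adjusted p = 0.019). The call was lost when any one of 6 of the 8 arrays was left out, all but WT sample 1 and βUCP2Tg sample 4, with limma adjusted p from 0.054 to 0.107. At an unadjusted p under 0.05, 15 of the 85 (17.6%) differed, 7 higher and 8 lower in βUCP2Tg islets, and the groups of 7 (8.24%) did not overlap. Both shares lay below the 24.5% and 13.2% of all genes. Among the 7, the exchanger *Slc8a2* (0.48, SE 0.10), the γ subunit *Cacng4* (0.48, SE 0.13) and the ER membrane protein *Tmbim6* (0.31, SE 0.09) were higher in βUCP2Tg islets. The channel *Trpm1* (-0.82, SE 0.20) and the calcineurin regulator *Rcan1* (-0.56, SE 0.17) were lower, and limma adjusted p-values of these 5 ran from 0.0728 to 0.114. *Calr*, calreticulin, a calcium-binding protein of the ER lumen, ran from 4.01 to 4.36 against 4.27 to 4.64 and differed by -0.24 (SE 0.13, limma adjusted p = 0.28). The median log2 fold change of the 85 genes was 0.04, beside 0.08 for the 36 members.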

How the data were processed

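One-colour Agilent arrays of 8 islet samples, 4 βUCP2Tg and 4 WT, were analysed. The authors processed the scans with Agilent Feature Extraction (version 9.1 per the submitters' processing notes, 10.7.3.1 per the file headers), and the deposited scanner files give linear spot intensity, background-subtracted and not scaled between arrays. The authors also deposited a GeneSpring table of normalized log2 values, which equal log2 of the scanner signal minus a constant per array. Its columns of fold changes and p-values were not used. That table gave gene symbols and probe sequences, and its 8 normalized columns chose the brightest probe of each gene.

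Control spots and spots marked as outliers were left out, each array's own 75th percentile was taken off log2 of the processed intensity, and the mean of a probe's spots was used. Probes counted as measured where 50% or more of their spots on that array were marked well above background (33191 to 36320 of 56605 probes per array). Probes measured on at least 4 of 8 arrays (35363) were tested in R 4.3.3 by limma 3.58.1 (lmFit, then eBayes). P-values were adjusted by Benjamini-Hochberg over all of these probes. Calls needed an adjusted p below 0.05 together with a change of more than 1.5-fold. The study states limits of 1.5-fold and a p of 0.05, which was applied here to the adjusted p. Replicate numbers come from the sample titles. All comparisons were two-sided, and the test was tried on simulated data first. With 4 arrays per group, their number limits the precision.

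The members, the gene lists and the tests were chosen with earlier results of these data known. All 40 members are named, and values on every array are given for those at an unadjusted p under 0.05 without overlap, with probes of opposite sign of which 1 had an unadjusted p under 0.05, and for *Itpr1*, *Atp2a2* and *Trpv1* to *Trpv4*, for which the methods list primers. The array values of the tested *Trpm3* probes were given after those values were seen. From the wider calcium list, those called or at an unadjusted p under 0.05 without overlap, and *Calr*, are named, except 1 gene that is not reported here. The alternatives were other filters on dim probes, quantile normalization, the percentile taken over probes that every array measured, normexp with an offset of 50, the deposited normalized values, outlier spots kept, the methods' t-test, an intensity trend, the mean of a gene's probes, calls at any fold change, the replicate number as a block, and each array left out. Leaving out WT sample 1 and βUCP2Tg sample 4 together was chosen after seeing the data. No coordinates are given, since the reference annotation was of another build than the file headers name (mm9). Plots were drawn with matplotlib 3.10.9.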

Additional observations from a re-analysis of the deposited data

Results flagged for a closer look

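The lowest or highest sample of a group of 4 stood apart from the other 3 in 4 of 74 groups examined, where chance gives about 1 in 20 (3.7 groups), by Dixon's limit on the gap divided by the range. In 3 of the 4 the sample was WT sample 1. For *Trpc1* the ratio was 0.939 (-0.35, the other WT samples 0.16 to 0.19), for *Trpm3* 0.89 (-4.05 against -3.31 to -3.22) and for *Itpr2* 0.86 (1.49 against -0.10 to 0.12), each time toward the βUCP2Tg samples. For *Cacna1g* it was WT sample 3, with 0.838 (-4.85 against -5.58 to -5.46).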

How the results depend on the processing

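With single arrays left out, 0 to 5 members were called, 5 to 14 had an unadjusted p under 0.05 (13.9% to 38.9%, against 15.8% to 36.4% of all genes), 5 to 13 did not overlap (13.9% to 36.1%, against 14.3% to 32.5% of all genes) and the members' median log2 fold change was 0.035 to 0.12, while 0 to 10 other calcium genes and 8 to 3759 of all probes were called. Without WT sample 1 and βUCP2Tg sample 4 together, 6 members (16.7%, where 15.7% of all genes were), 16 other calcium genes and 5486 probes were called, and 16 members did not overlap (44.4%, where 46.6% of all genes did not). *Trpc1* alone was called with an intensity trend, with normexp and with the filter at all 8 arrays (1 member each, 2.78%, where 1.18%, 1.1% and 0.838% of all genes were), and *Trpc1* and *Trpm3* with the mean of a gene's probes (2 members, 5.56%, against 0.924%), *Trpm3* there with a probe that passed the filter through WT arrays alone. The methods' t-test gave 8 of 36 members at an unadjusted p under 0.05, fewer than the 13 by limma. The share of all genes under that test is not given here, so the count cannot be read against all genes. Over all probes, 379 were called with an intensity trend, 301 with normexp, 237 with the filter at all 8 arrays, 38 with the filter at 1 array, 26 by the methods' t-test and 21 without a filter, and no other calcium gene (0) was called with normexp or without a filter. With the replicate number as a block, 14 probes, 0 members and 0 other calcium genes were called. Deviations from the group means correlated between samples of the same number at r from -0.24 to 0.44, highest for number 1. Whether the numbers mark pairs was not settled. With the mean of a gene's probes *Cacna1a* (-0.10), *Cacna1b* (-0.17) and *Cacna1c* (-0.23) changed sign, without WT sample 4 *Cacna1b* (-0.0043) and *Cacna1c* (-0.032), and without WT sample 2 *Trpv4* (0.0074, the lowest value being -0.50 without WT sample 1). The cause of these changes was not tested. *Ucp2* was called throughout, with a log2 fold change of 3.34 to 6.38.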

Other observations

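The probe used to read a gene bore on the direction. By their brightest probes the members were higher at an unadjusted p under 0.05 for 8 genes and lower for 5, but of their 48 other tested probes 1 was higher and 15 were lower in βUCP2Tg islets. The median log2 fold change was 0.08 for the brightest and -0.11 for the other probes. The same held over the array: of 12323 other probes of all genes, 7.85% were higher and 20.4% lower, with a median of -0.09, beside 0.03 for the brightest probes.

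WT sample 1 was the WT sample nearest to the βUCP2Tg mean for 13 of the 36 tested members (36.1%) and for 39.1% of all genes. βUCP2Tg sample 4 was the one nearest to the WT mean for 16 of the 36 (44.4%) and for 46.4% of all genes. The other 6 samples took between 11.1% and 25.0% of the members.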
